A study of Macaca fascicularis with 9 samples.

Results

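MALAT1, a long noncoding RNA, is described here in single nuclei of the thalamus of female cynomolgus monkeys, as its share of the transcript molecules (unique molecular identifiers, UMIs) counted in each nucleus. It is 1 of the 29128 features of the deposited count matrix and was taken by its name, and its share was followed across the 17 clusters and the cell types that the authors gave to 79994 nuclei. Nuclei were sorted by their DNA stain DAPI and their RNA was counted in droplets. Saline animals (3) received 4 intravenous doses of saline at intervals of 2 weeks. ASO animals (3) received 1 intrathecal dose of 4 mg of an antisense oligonucleotide against MALAT1, that is, into the cerebrospinal fluid. OTV animals (3) were given OTV:MALAT1 into a vein, 30 mpk per dose and 4 doses on the 2-week schedule. In each group the tissue dates from 2 weeks after the final dose. No group received saline by the intrathecal route, and the ASO and OTV groups differ in route, dose and number of doses together, so each contrast compares whole treatments. The labels used here state no ages.

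MALAT1 is among the most abundant RNAs of mammalian nuclei, is not translated and gathers at nuclear speckles, bodies rich in splicing factors. A gapmer antisense oligonucleotide pairs with its target RNA in the nucleus and cytoplasm, and the enzyme RNase H then cuts the RNA strand. The transferrin receptor, which the OTV carrier binds, moves iron-loaded transferrin across the endothelium of brain vessels, a route by which large molecules can be taken from the blood into the brain.

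Total depth lay between 20.0 M and 98.9 M UMIs (M for mega) an animal, in 2956 to 11992 nuclei, with medians of 2579 to 7791 UMIs per nucleus. The shallowest nuclei were those of OTV animal 3, and saline animal 3 had the fewest nuclei. Any 2 animals shared 3 to 48 cell barcodes over the 36 pairs of animals. Marker genes were highest for the type the authors name in oligodendrocytes, oligodendrocyte precursor cells (OPCs), astrocytes, myeloid cells and neurons. OPC cluster 13 is less clear, with marker sums over its pooled nuclei of 2423 CPM (counts scaled to a common library total) for OPCs, 2383 CPM for oligodendrocytes and 780 CPM for neurons, against 6394, 565 and 1142 CPM in OPC cluster 4. Myeloid cluster 7 had more of the T cell genes SKAP1 (80.8 CPM) and THEMIS (31.9 CPM) than myeloid cluster 9 (12.9 and 0.456 CPM). CD3E, also a T cell gene, was alike in them (16.3 and 13.1 CPM). Clusters 15 and 16 are named unknown by the authors and stay unnamed here. Cluster 15 was led by LAMA2, SLC6A12, EBF1 and COLEC12, and cluster 16 by CFAP299, CFAP54 and other genes of cilia. The clusters were made from expression that may include MALAT1, so levels between clusters are given without a test.

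MALAT1 UMIs were counted in every nucleus. Free RNA in the droplets can add UMIs to any nucleus, and its part was not measured here, so low counts are not read as expression. The lowest count was 3 UMIs, the lowest share was 0.0499% (3 of 6015 UMIs) and the highest was 23.6%. Pooled over the nuclei of a cluster in an animal, the share is known closely: in the 10 clusters with at least 20 nuclei in each of the 9 animals, its Wilson 95% interval stayed within 0.092 percentage points of the interval's centre. These intervals cover counting error only, and the spread between animals was far wider. The 10 clusters, which are the ones tested, hold 72437 nuclei, or 90.6% of all.

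In saline animals the clusters differed in their mean MALAT1 level. Cluster 15 was highest, with 8.88% ± 0.332 (SD, n = 3) of UMIs, and the myeloid clusters 7 and 9 were lowest, with 3.51% ± 0.165 (SD, n = 3) and 3.04% ± 0.188 (SD, n = 3). Oligodendrocyte clusters, 7 in all, lay between 5.82% in cluster 10 and 7.0% in cluster 1. The main astrocyte cluster 6 stood at 6.0% ± 1.42 (SD, n = 3) and the neurons of cluster 11 at 5.67% ± 0.753 (SD, n = 3). OPC clusters 4, 13 and 14 had 4.04%, 4.43% and 5.43%. From the highest, the order by saline mean was 15, 12, 16, 1, 8, 2, 0, 3, 5, 6, 10, 11, 14, 13, 4, 7 and 9. Astrocyte clusters 12 and 6 stand on either side of most oligodendrocyte clusters, so types are interleaved in this order. Of the 16 neighbouring pairs, 15 overlapped between saline animals. Only myeloid cluster 7 lay apart from its neighbour, above myeloid cluster 9 in 9 of 9 animals of all groups. Myeloid cluster 9 was the lowest of the 10 tested clusters in 8 of 9 animals. The exception was saline animal 3, in which the small OPC cluster 13 was lower.

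**Figure D1:**
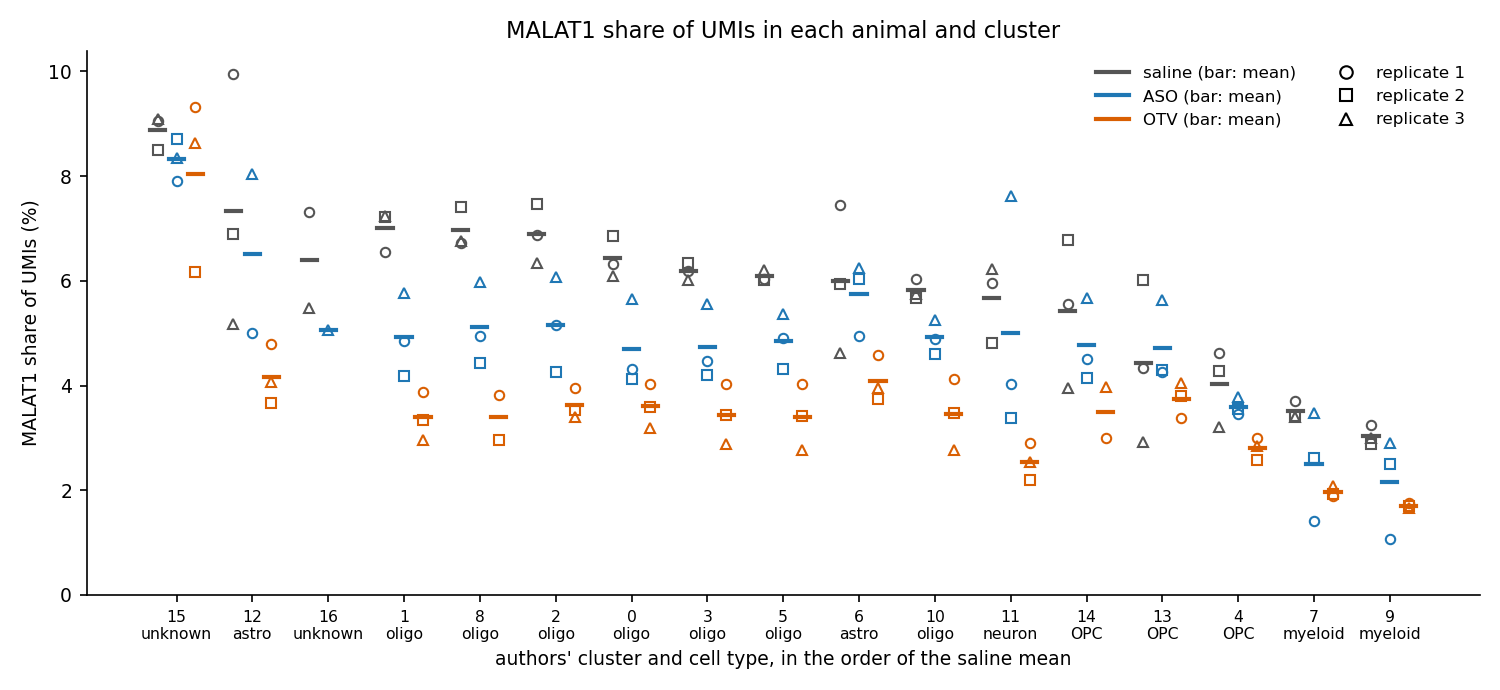
MALAT1 share of UMIs (percent, vertical axis, from 0) in each cluster with at least 5 nuclei of that animal, clusters ordered by saline mean. Points are animals and bars are the means over the animals shown; oligodendrocyte clusters sit near 6 to 7% in saline and at 3.39 to 3.62% after OTV, myeloid clusters are the lowest, and the cluster 15 mean is above 8% in all groups.

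Oligodendrocytes, the myelin-forming glia and 61578 of the nuclei, gave the most regular picture of MALAT1 after treatment. In cluster 0, the largest, the share was 6.33%, 6.86% and 6.09% in saline animals 1, 2 and 3. ASO animals 1, 2 and 3 had 4.33%, 4.13% and 5.64%, and OTV animals 1, 2 and 3 had 4.03%, 3.59% and 3.19%. The 3 groups did not overlap, and OTV was below ASO, which was below saline. Cluster 1 had the widest gap: 6.54%, 7.23% and 7.23% in saline, 4.86%, 4.18% and 5.77% after ASO, and 3.87%, 3.34% and 2.95% after OTV. Group means in cluster 1 were 7.0% ± 0.397, 4.93% ± 0.799 and 3.39% ± 0.463 (SD, n = 3 each). OTV animals thus held 48.4% of the saline level there, and ASO animals 70.5%. In clusters 2, 3 and 5 the OTV means were 52.6%, 55.8% and 55.9% of saline, and the ASO means 74.8%, 76.8% and 79.8%, again with no overlap of the groups. A 2-sided exact permutation test over the 280 partitions of the animals gave p = 0.00357 in each of the 5 tested oligodendrocyte clusters. This is the smallest p it can give, and it was 0.00714 after Benjamini-Hochberg adjustment over the 10 clusters. The 5 clusters hold nuclei of the same animals, so their p values are not independent of each other. The share of all genes whose 3 groups stand apart in this way was not counted. Between any 2 groups of 3 animals the smallest exact p is 0.1. Without saline animal 2 these adjusted p were 0.0536 to 0.0786, so none of the 5 clusters passed. Cluster 0 was also lost without saline animal 1 (adjusted exact permutation p = 0.0786) or saline animal 3 (0.0561), and cluster 3 without saline animal 1 (0.0625).

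Among OPCs, the dividing precursors of oligodendrocytes, 2 clusters were tested. Cluster 4 had MALAT1 shares of 4.62%, 4.28% and 3.21% in the saline animals, 3.45%, 3.55% and 3.79% after ASO and 3.0%, 2.58% and 2.85% after OTV. OTV animals lay below all others, while ASO animals lay within the saline range. The exact permutation p over the 3 groups was 0.05 (0.0833 adjusted), so the difference did not pass. Cluster 13, with 25 to 61 nuclei an animal, had 4.43% ± 1.55, 4.73% ± 0.783 and 3.74% ± 0.347 (SD, n = 3 each) in saline, ASO and OTV, with the groups overlapping and an exact permutation p of 0.479. Of the tested clusters this was the only one in which the 3 OTV animals were not all below the 3 saline animals.

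Astrocytes of cluster 6 held 7.44%, 5.94% and 4.62% of UMIs as MALAT1 in saline animals 1, 2 and 3. ASO animals had 4.95%, 6.04% and 6.24%, within the saline range, and OTV animals had 4.59%, 3.74% and 3.96%, just below it. The exact permutation p over the groups was 0.15. Saline animal 3 was the lowest saline animal in clusters 4, 6 and 13, at 79.6%, 76.9% and 66.0% of the saline mean. It was also lowest, by less, in clusters 0, 2, 3 and 7, at 94.8%, 91.9%, 97.3% and 97.0%. In cluster 5 it was the highest (102%), and in cluster 1 it was level with saline animal 2 (103% each). Without it, clusters 4 and 6 passed (adjusted exact permutation p = 0.0268 and 0.0417).

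Myeloid cells, the microglia and other macrophages of the tissue, had widely spread MALAT1 levels within the ASO group. In cluster 7 the share was 3.70%, 3.43% and 3.41% in saline animals, 1.42%, 2.62% and 3.47% in ASO animals, and 1.88%, 1.93% and 2.08% after OTV. The saline animals had 3.25%, 2.88% and 2.99% in cluster 9, the ASO animals 1.07%, 2.49% and 2.91%, and the OTV animals 1.77%, 1.69% and 1.67%. ASO animal 1 was therefore the lowest of all 9 animals in both clusters, below the OTV animals, and ASO animal 3 lay within the saline range. In ASO animal 1, 123 of 229 nuclei of cluster 7 (53.7%) and 59.0% of those of cluster 9 had less than 1% of UMIs as MALAT1. No saline nucleus of cluster 7 and at most 4.6% of the nuclei of any OTV animal in these clusters did. OTV means were 56.0% and 56.2% of saline in the 2 clusters, with all OTV animals below all saline animals. The exact permutation p over the 3 groups was 0.0893 and 0.114. Both clusters passed without ASO animal 1 (adjusted exact permutation p = 0.0153 in each), and cluster 7 without ASO animal 3 (0.0476).

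Clusters with fewer nuclei were added after the data had been seen. Oligodendrocyte cluster 10 had 5.82% ± 0.192, 4.92% ± 0.329 and 3.46% ± 0.68 (SD, n = 3 each), with no overlap between the groups. Neurons of cluster 11 had 5.97%, 4.81% and 6.22% in saline, 4.03%, 3.38% and 7.61% after ASO, and 2.9%, 2.2% and 2.54% after OTV. OTV neurons were all below the others, and ASO animal 3 was above every saline animal. Its 467 neuronal nuclei compare with 18 and 17 in the other ASO animals. Median depth of cluster 11 nuclei was 15996, 13139 and 16058 UMIs in saline animals, 5253, 16731 and 7210 in ASO animals and 4445, 13880.5 and 5864.5 in OTV animals. No depth bin held 20 neurons in every animal, so the groups were not compared at like depth. Of the neuron markers in the pooled nuclei of cluster 11, SYT1 was highest (1979 CPM) and SLC17A6 lowest (5.14 CPM). GAD1 and GAD2 had 259 and 325 CPM. Whether the animals differ in the kinds of neuron they hold in cluster 11 was not tested. Cluster 15 had the OTV mean nearest to saline: 9.05%, 8.5% and 9.1% in saline, 7.9%, 8.72% and 8.35% after ASO and 9.33%, 6.16% and 8.63% after OTV, an OTV mean of 90.5% of saline from 7 to 72 nuclei an animal. Clusters 10, 11 and 15 had exact permutation p of 0.00357, 0.0786 and 0.693. Clusters 8, 12, 14 and 16, each with an animal of 0 or 1 nuclei, had OTV means at 50.7%, 56.8%, 64.3% and 44.7% of saline. The value of cluster 16 rests on 1 OTV animal with 2 nuclei.

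Tested with all genes in edgeR's quasi-likelihood model of UMI sums per animal and cluster (TMM scaling, Benjamini-Hochberg adjustment over all genes of the cluster), MALAT1 fell in OTV against saline in 6 of 10 clusters. The fold change on the log2 scale was -1.02 (SE 0.14, adjusted p = 0.00152) in oligodendrocyte cluster 1 and -0.79 (SE 0.14, adjusted p = 0.0057) in cluster 0. Clusters 2, 3 and 5 gave -0.90, -0.78 and -0.76 (edgeR adjusted p = 0.00299, 0.00403 and 0.00421). OPC cluster 4 gave -0.48 (edgeR adjusted p = 0.0297), which passed in 12 of 16 alternatives and not without saline animal 1, saline animal 2, OTV animal 2 or OTV animal 3 (0.0604 to 0.108). Clusters that did not pass were astrocyte cluster 6 at -0.48 (0.206), myeloid clusters 7 and 9 at -0.87 (0.071) and -0.89 (0.128), and OPC cluster 13 at -0.17 (0.712), with edgeR adjusted p in brackets. Without ASO animal 1, which shares the spread estimate, the myeloid clusters passed (edgeR adjusted p = 0.0256 and 0.00252). Counting every alternative, cluster 7 passed in 5 of 15 and cluster 9 in 3 of 15. A fall was no rarity among genes: over the 10 clusters together 8.11% of the 130745 tests of a gene in a cluster were called lower in OTV against saline, and 4.18% to 11.1% in single clusters. Every OTV animal was under every saline animal in 17.3% of these tests, and for MALAT1 in 9 of 10 clusters. By size of fold change MALAT1 stood at place 2317 from the largest fall in cluster 1, among 16567 genes that include many of low count.

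In ASO against saline, MALAT1 passed the edgeR test in 0 of 10 clusters, with 5 at an unadjusted p under 0.05 and 1, cluster 1, by DESeq2's Wald test (adjusted p = 0.0375). In cluster 1 the edgeR estimate was -0.54 on the log2 scale (SE 0.14, adjusted p = 0.135), and it ranged from -0.54 to 0.12 over the clusters. Few genes of any kind passed in that contrast, with 0.257% of all tests called lower. The 3 ASO animals were all under the saline animals in 5 of 10 clusters, the 5 of oligodendrocytes, beside 6.53% of all tests. In OTV against ASO, MALAT1 fell in cluster 1 (-0.47, SE 0.14, edgeR adjusted p = 0.0369) and in no other of the 10 clusters, beside 11.4% of all tests called lower. That call was lost when any single one of ASO animals 1 and 3, OTV animals 2 and 3 and saline animals 1 and 2 was left out (adjusted p of 0.0514 to 0.146). OTV animals all lay below ASO animals in 8 of 10 clusters, all but the myeloid ones, beside 24.1% of all tests. Of the added clusters, 8 and 10 passed in OTV against saline, at -1.15 (without OTV animal 3, edgeR adjusted p = 0.0035) and -0.64 (edgeR adjusted p = 0.0279), beside 3.72% and 6.39% of genes called lower there. The call of cluster 10 was lost without saline animal 1, saline animal 2, OTV animal 2 or OTV animal 3 (edgeR adjusted p = 0.108, 0.0908, 0.0836 and 0.143). Neurons had -1.25 (SE 0.53, edgeR adjusted p = 0.165) and cluster 15 had -0.21 (edgeR adjusted p = 0.821). A share falls whether a nucleus holds fewer MALAT1 molecules or more molecules of other RNAs, and these cannot be told apart here.

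**Figure D2:**
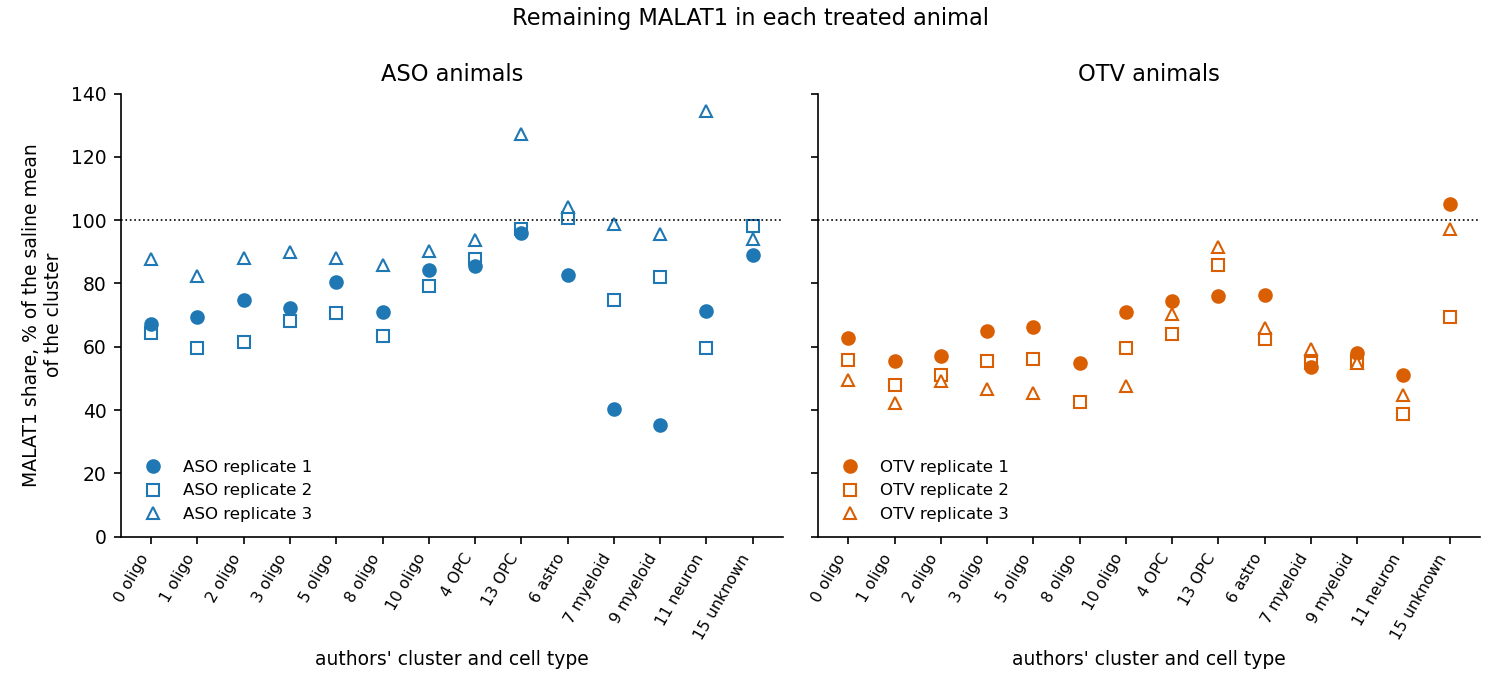
MALAT1 share in each animal as a percentage of the saline mean of its cluster (vertical axis), for 14 clusters; the dotted line marks 100%. OTV animals lie below the line in the tested clusters, ASO animal 1 reaches 35.2% in myeloid cluster 9, and cluster 15 lies nearer the line than most, apart from OTV animal 2.

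Whether MALAT1 changed by different amounts in different clusters was tested directly. The interaction of cluster and treatment in edgeR, with animal as a block, had an adjusted p of 0.4 over 17165 genes for the 3 groups together. In OTV against saline alone the edgeR unadjusted p was 0.0323, and the adjusted p over all genes was 0.203. The edgeR adjusted p was 0.378 in ASO against saline and 1 in OTV against ASO. For comparison 14.7% of genes passed that interaction test for the 3 groups and 8.06% for OTV against saline. Exact permutation of the animals gave p = 0.154 over the 3 groups, and 0.1 for OTV against saline, the smallest that 3 against 3 animals can give. Over the 10 tested clusters OTV means ran from 48.4% to 84.6% of saline with a median of 56.0%, and ASO means from 70.5% to 107% with a median of 75.8%. A difference between clusters did not pass these tests, which does not show that the clusters changed alike. MALAT1 may have been among the genes used for clustering, and the part of this in these p values was not tested. Leaving out saline animal 3 moved the exact permutation p to 0.821. Without ASO animal 1 the edgeR interaction for OTV against saline passed (adjusted p = 0.017). Set against the other clusters of the same animal, cluster 1 had an exact permutation p of 0.0429 and cluster 15 of 0.05, both 0.244 after adjustment over 13 clusters. Cluster 15 was above the rest by 0.58 (log2) in saline, 0.82 in ASO and 1.24 after OTV.

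The spread over clusters can also be read within each animal, here over the 10 tested clusters. ASO animal 1 ran from 35.2% of the saline mean in myeloid cluster 9 to 96.0% in OPC cluster 13, and ASO animal 3 from 82.4% to 127%. OTV animals 1, 2 and 3 ran from 53.7%, 47.8% and 42.2% up to 76.4%, 85.9% and 91.6%. The lowest of the 10 was oligodendrocyte cluster 1 in OTV animals 2 and 3 and myeloid cluster 7 in OTV animal 1. Saline animals themselves ranged from 66.0% to 136%, both in OPC cluster 13. Of the clusters with fewer nuclei, the neurons of cluster 11 stood at 51.1%, 38.7% and 44.9% in OTV animals 1, 2 and 3 and at 134% in ASO animal 3, and cluster 15 at 105%, 69.3% and 97.1% in the OTV animals.

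The 6 oligodendrocyte clusters with at least 5 nuclei in every animal had group means of MALAT1 that lay closer together in the treated groups. Their means spanned 5.82% to 7.0% in saline, 4.7% to 5.16% in ASO and 3.39% to 3.62% after OTV. By mean, cluster 1 was the highest of these in saline and the lowest after OTV. Single animals did not all follow the means: cluster 2 was above cluster 1 in saline animals 1 and 2, and clusters 3, 5 and 10 were below cluster 1 in OTV animal 3. OTV animal 3 ran from 2.77% to 3.39% over these clusters and saline animal 1 from 6.03% to 6.88%, so relative to its level OTV animal 3 was more spread than saline animal 1. Saline animals 2 and 3 were more spread than OTV animal 3. The widest log2 ratio between 2 of these clusters was 0.40 and 0.33 in these saline animals and 0.29 in OTV animal 3. The log2 ratio of cluster 0 over cluster 1 was -0.05, -0.07 and -0.25 in saline animals 1, 2 and 3, and 0.06, 0.10 and 0.11 in OTV animals 1, 2 and 3. That order was thus opposite in all 3 against all 3. Its exact permutation p over the groups was 0.0536, or 0.268 after adjustment over the 15 pairs of clusters, and none of these pairs passed.

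The MALAT1 gap between groups in oligodendrocytes was there in each of the 3 depth bins with enough nuclei to test. Oligodendrocyte nuclei of 2000 to 4000 UMIs had a share of 6.91%, 7.3% and 6.29% in saline, 5.08%, 4.19% and 5.89% after ASO and 3.72%, 3.47% and 3.18% after OTV. Those of 8000 to 16000 UMIs had 6.06%, 6.5% and 7.75%, then 4.49%, 4.18% and 5.47%, then 3.99%, 3.39% and 2.79%. The groups stood apart in both bins, in the same order. OTV was at 50.6%, 51.1% and 50.1% of saline in nuclei of 2000 to 4000, 4000 to 8000 and 8000 to 16000 UMIs, and ASO at 73.9%, 73.6% and 69.6%. Each of these gave an exact permutation p of 0.00357 (0.00833 adjusted over the 7 bins with at least 20 nuclei in every animal). The bins hold nuclei of the same animals, so these p values are not independent of each other. Myeloid nuclei of 2000 to 4000 UMIs had OTV at 51.6% of saline (exact permutation p = 0.0393, 0.0688 adjusted). OPC nuclei had OTV at 66.9% and 76.4% of saline in the bins of 4000 to 8000 and 8000 to 16000 UMIs (exact permutation p = 0.075 and 0.136). Astrocyte nuclei of 8000 to 16000 UMIs had OTV at 69.8% (exact permutation p = 0.146). Within a cluster, the rank correlation of share with depth, a description over nuclei, had medians over all animals from -0.18 to 0.06. The medians by group were not alike, a difference that was not tested. Saline medians were -0.39, -0.26 and -0.29 in clusters 4, 5 and 6, and OTV medians there were -0.07, -0.0044 and 0.06. Clusters 1 and 13 went the other way, from -0.03 to -0.07 and from 0.11 to 0.02, and cluster 9 had -0.24 and -0.21.

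**Figure D3:**
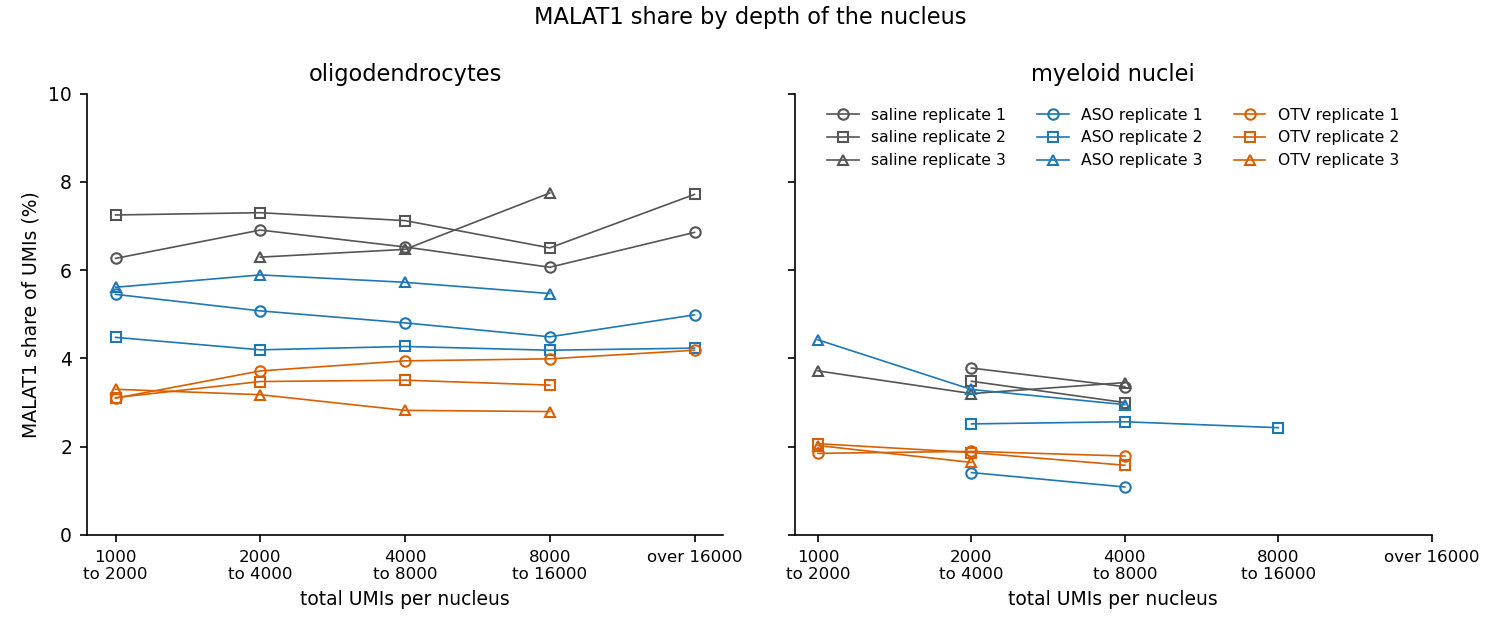
MALAT1 share of UMIs (percent, vertical axis) by UMIs per nucleus (horizontal axis, bins) in oligodendrocytes (left) and myeloid nuclei (right), for bins with at least 20 nuclei of an animal. Lines are animals; in oligodendrocytes the OTV lines stay below the ASO and saline lines in each bin, at 50.1 to 51.1% of saline in the 3 bins tested.

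The groups also differ in which clusters their nuclei fill, so the MALAT1 share was set to 1 common mix of clusters. Over 13 clusters holding 95.4% of nuclei, the standardised share was 5.99%, 6.06% and 5.61% in saline, 4.23%, 4.04% and 5.45% after ASO and 3.62%, 3.15% and 2.99% after OTV. The groups did not overlap, with ASO animal 3 just under the lowest saline animal. Means were 5.89% ± 0.246, 4.57% ± 0.77 and 3.25% ± 0.326 (SD, n = 3 each), or 77.7% of saline for ASO and 55.3% for OTV (exact permutation p over the 3 groups 0.00357). That p was 0.0393 without any 1 of the saline animals. With equal weight for each tested cluster, ASO animal 3 (5.04%) lay within the saline range of 4.90% to 5.65% (exact permutation p = 0.00714).

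Among the 10 tested clusters, those with more MALAT1 in saline had the larger difference in percentage points after OTV, while the fraction followed the level less closely. Where clusters lose a like fraction, points lost rise with the level by arithmetic. To keep the level and the loss from sharing an animal, the level was read in 1 saline animal and the loss against the mean of the other two. Over the 10 tested clusters Pearson's r of level with points lost in OTV was 0.61, 0.56 and 0.96 with the level from saline animals 1, 2 and 3. On the log2 scale, where a fixed fraction lost gives no slope, r of level with the log2 ratio was -0.22, -0.05 and -0.71, negative meaning a larger fraction lost at higher level. For ASO these were 0.29, 0.26 and 0.87 for points and 0.04, 0.16 and -0.33 on the log2 scale. By rank, Spearman's rho for OTV was 0.50, 0.70 and 0.93 for points and -0.42, -0.14 and -0.78 on the log2 scale. With the added clusters 10, 11 and 15, r for OTV was 0.23, 0.21 and 0.31 for points and 0.18, 0.26 and 0.11 on the log2 scale. Cluster 15, with the highest level and a small difference, is among them. Without the myeloid clusters r for OTV was 0.56, 0.63 and 0.94 for points and -0.50, -0.51 and -0.94 on the log2 scale. The fraction then followed the level about as closely as the points did. The points of 1 animal share a library and clusters of 1 type share genes, so these values are a description.

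**Figure D4:**
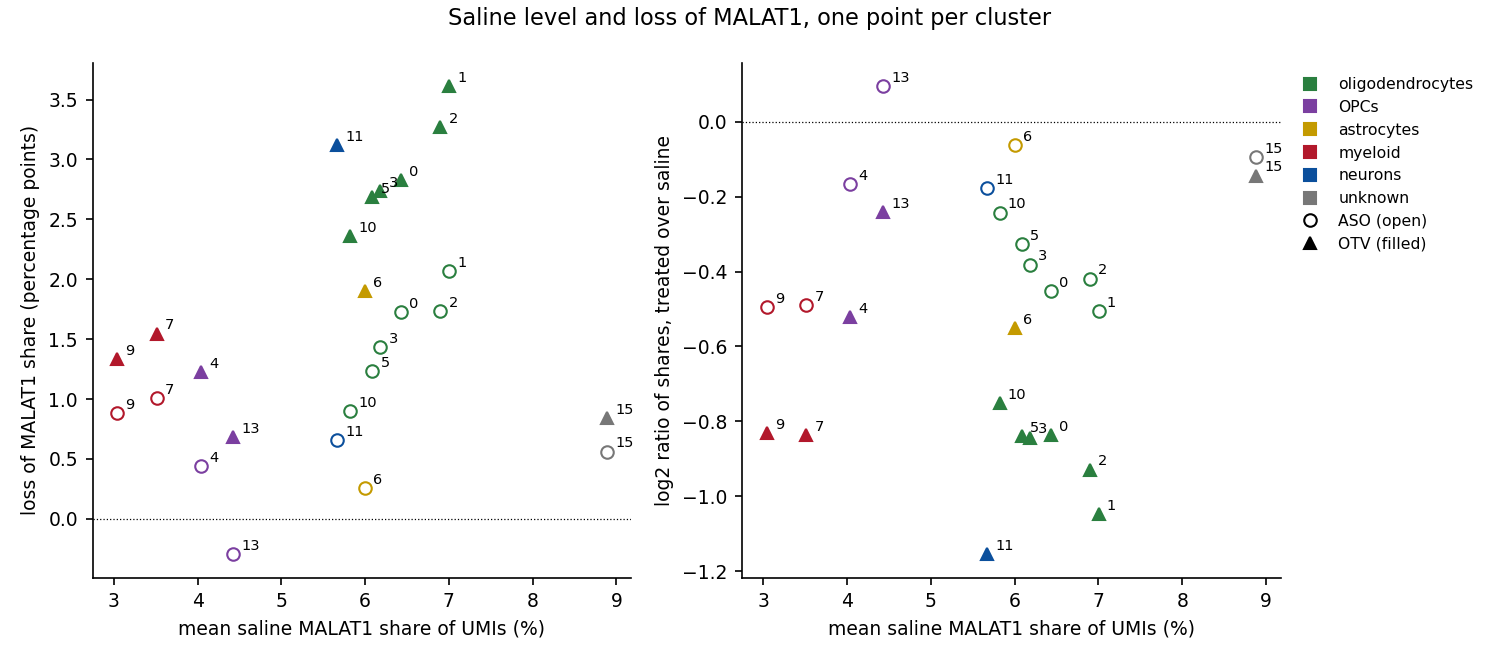
Mean MALAT1 share in saline (percent of UMIs, horizontal axis) against the difference from saline (percentage points, vertical axis) for 13 clusters, open circles for ASO and filled triangles for OTV. The 2 myeloid clusters sit at the low end, oligodendrocyte clusters at 5.82 to 7.0%, and cluster 15 lies apart, at 8.88% with a small difference.

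Genes whose level across the 10 tested clusters was most like that of MALAT1 were sought in saline animals, among 3590 genes with a mean of at least 50 CPM. KIF1B, a kinesin motor that carries vesicles along axons and processes, was first, with Pearson's r of 0.98, 0.93 and 0.92 in saline animals 1, 2 and 3. NAALADL2, FGFR2 (a fibroblast growth factor receptor), IGSF11, CLIC4 and CYP2J2 followed, with a lowest r of 0.89 to 0.92. All 6 had low levels in the myeloid clusters: KIF1B stood at 233 and 219 CPM in clusters 7 and 9 and at 1420 and 1504 CPM in clusters 0 and 1. Opposite in pattern were TBC1D14, FMNL3 (a formin acting on actin), MTHFD1L (a mitochondrial folate enzyme) and ADARB1 (an adenosine deaminase that edits RNA), with r between -0.96 and -0.88 in saline. FMNL3 had 924 and 959 CPM in the myeloid clusters and 6.99 and 5.33 CPM in clusters 0 and 1. In treated animals the likeness of KIF1B ran from 0.54 to 0.90 and that of ADARB1 from -0.95 to -0.70, with OTV animal 3 the farthest from saline for both. These r are over 10 clusters that share cell types, and describe cell type patterns.

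Within a cluster, correlations of MALAT1 with single genes went both ways and few kept their sign over animals and clusters. Partial correlations, taken over the nuclei of each animal after removing depth, covered 4355 genes in the 7 clusters with at least 100 nuclei in every animal. Median r over genes ran from -0.0082 to 0.0033 over the clusters, and single genes reached medians over animals of -0.26 and 0.24 in astrocyte cluster 6. In myeloid cluster 7 14.1% of genes were negative in at least 8 of 9 animals. By a rule asking for the same sign in at least 8 of 9 animals in most clusters, 6 features were positive and 0 negative. Those with a symbol were PNN (mean r 0.041), a speckle protein; PRPF4B (0.036), a kinase of the splicing machinery; KANSL1L (0.034); ZNF638 (0.029), an RNA-binding zinc finger protein; and VPS13C (0.027), a lipid transfer protein. Correlations of this size in sparse counts are no finding. With genes detected in at least 40% of nuclei 4 features met the rule, and after thinning to 2000 UMIs, which also leaves fewer nuclei, 0 did. Mean r after thinning was 0.038 for PRPF4B and for KANSL1L, 0.027 for PNN, 0.023 for ZNF638 and 0.014 for VPS13C. The 12 measured speckle genes had a median r of 0.017, beside -0.0007 for all genes.

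In oligodendrocyte cluster 1 the genes that went with MALAT1 differed between the groups. Limma on Fisher's z of each animal's correlation, a test added after the data had been seen, called 550 of 2587 genes (21.3%, adjusted p under 0.05) in OTV against saline. All genes of an animal were set against the same MALAT1 values over the same nuclei, so these calls are not independent of each other. Correlations had opposite signs in all saline and all OTV animals for 461 genes (17.8%), of which 337 were among the 550. GRIK2, a subunit of kainate-type glutamate receptors, had partial r of 0.28, 0.26 and 0.31 in saline animals, 0.01, 0.09 and 0.07 in ASO animals and -0.15, -0.11 and -0.15 after OTV. In saline, then, nuclei with more MALAT1 had more GRIK2; after OTV they had less; ASO animals lay between. The difference of Fisher's z was -0.42 (SE 0.028, limma adjusted p = 3.44e-08). PPP2R2B, a regulatory subunit of protein phosphatase 2A, went from 0.21, 0.23 and 0.31 in saline to -0.07, -0.11 and -0.11 after OTV. STIM1, the calcium sensor of the endoplasmic reticulum, SYT1, a calcium sensor of vesicle release, and DUSP10, a phosphatase of MAP kinases, also went from positive to negative. KLHL4 went from -0.16, -0.23 and -0.31 in saline to 0.18, 0.14 and 0.16 after OTV. ABCA8, a lipid transporter, CRYBG3, PCGF5, a Polycomb protein, and MAGI1, a junction scaffold, went the same way.

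**Figure D5:**
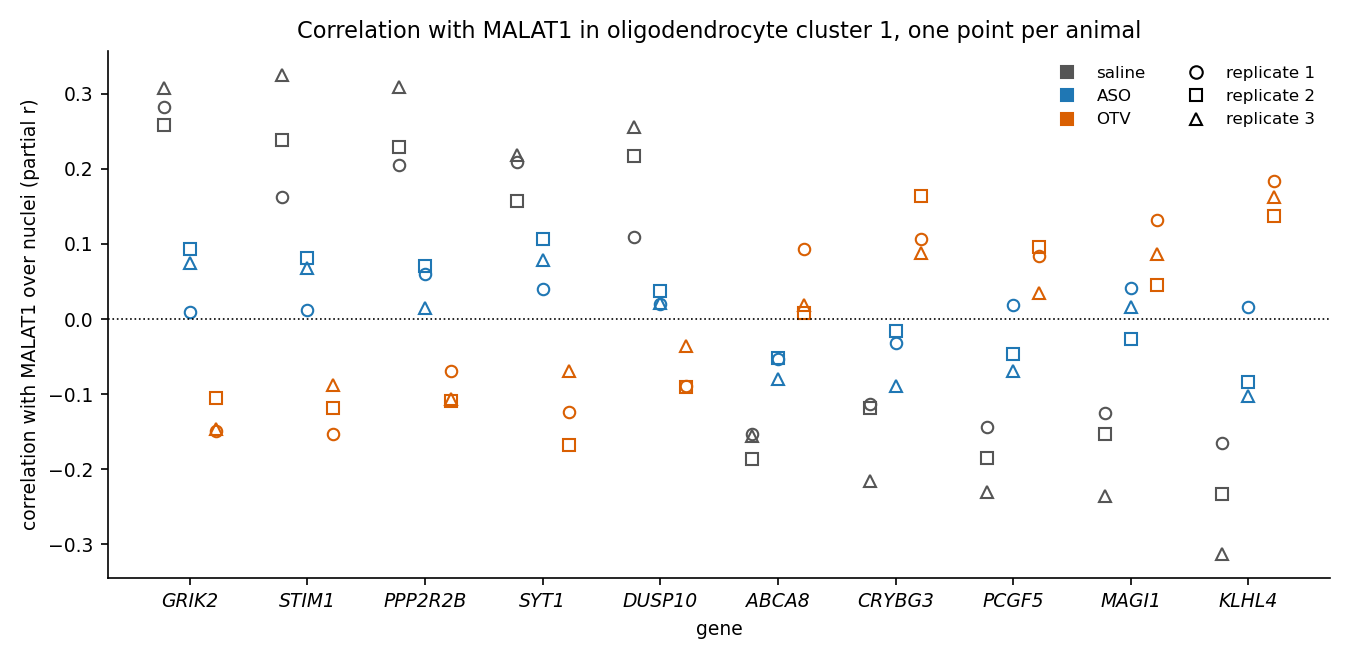
Partial correlation with MALAT1 over the nuclei of oligodendrocyte cluster 1 (vertical axis, Pearson's r after removing depth) for 10 genes, 1 point per animal, by group. Saline and OTV animals lie on opposite sides of 0 for each gene, GRIK2 from 0.28 to -0.15 and KLHL4 from -0.16 to 0.18 in animals 1, and ASO animals lie mostly between.

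These 10 genes were chosen by smallest adjusted p, 5 in each direction, so their separation of the animals follows from the choice and is a description. After thinning ABCA8 was at an adjusted p of 0.0936 by limma. Their own levels in cluster 1 did not move alike: 2 of 10, CRYBG3 and KLHL4, were called higher in OTV than in saline, and 0 lower (edgeR's quasi-likelihood test), beside 4.76% of all genes called higher and 8.28% lower there. GRIK2 stood at 1143 ± 687 CPM in saline and 580 ± 162 CPM after OTV (SD, n = 3 each; edgeR adjusted p = 0.259). The count of 550 was 191 without OTV animal 1, 250 without saline animal 2 and 214 after thinning. ASO against saline gave 109 genes (4.21%), from 2 without saline animal 2 to 223 without saline animal 1, and OTV against ASO gave 47 (1.82%), from 0 without OTV animal 1 to 238 without ASO animal 1. In cluster 0, the largest, limma called 0 genes (0%) in OTV against saline, with 145 of 2063 at an unadjusted p under 0.05. Cluster 2 had 19 of 1398 (1.36%) in that contrast, 3 after thinning and 8 to 56 with 1 animal left out. GRIK2 and KLHL4 were among the 19, in the same directions as in cluster 1 (limma adjusted p = 0.0168 and 0.000623). Each was lost under 1 check, GRIK2 with 1 animal left out (highest adjusted p 0.286) and KLHL4 after thinning (0.259). The other clusters had 0, and up to 64, in cluster 6 without saline animal 3, with 1 animal left out. That cluster 1 differs from the others in this was not tested. Neuronal markers summed to 248 to 824 CPM in cluster 1 in saline, 169 to 236 in ASO and 194 to 290 after OTV (7 of 8 listed genes measured, SYT1 among them, none at 0). Most of each sum was SYT1, itself 1 of the 10 genes. It had 202, 338 and 711 CPM in saline, 185, 196 and 96.6 CPM in ASO and 244, 185 and 145 CPM after OTV. RBFOX3 and SNAP25, also on the list, had 3.53 and 14.3 CPM in the pooled nuclei of cluster 1, and 3.72 and 12.9 CPM in cluster 0. The part of these markers in the result was not tested.

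Genes tied to MALAT1 by function were counted from 3 lists in the same edgeR fits. Of the 18 listed genes of speckle proteins and splicing factors, 15 are among the features. In OTV against saline, 8 were higher and 0 lower in cluster 0, where 6.36% of all genes were called higher, and 3 to 8 were higher and 0 to 1 lower over the 10 clusters, beside 5.66% of all tests called higher. The range of 3 to 8 was 1 to 5 without saline animal 1, 1 to 6 without saline animal 2, 2 to 5 without saline animal 3, 1 to 7 without OTV animal 2, 2 to 5 without OTV animal 3, 2 to 7 without ASO animal 1, 2 to 8 without ASO animal 2 and 2 to 6 with the 6 compared animals only. The median log2 fold change of the list was 0.26 to 0.64, beside -0.03 to 0.02 for all genes. U2AF2, which recognises the end of introns, and SRRM2, a scaffold of speckles, rose in 10 of 10 clusters with all animals. At least 1 of these calls was lost in some cluster without saline animal 1, saline animal 2 or OTV animal 2, where the fewest genes called in a cluster was 1. SF3B1, of the U2 particle, rose in 9 and SON, a speckle scaffold, in 7, whereas SRSF2, a splicing factor, fell in 5.

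In cluster 0 U2AF2 had 25.2, 27.8 and 18.7 CPM in saline, 29.2, 34.6 and 28.2 CPM after ASO and 53.3, 45.9 and 51.7 CPM after OTV, a log2 fold change of 1.08 in OTV against saline (SE 0.17, edgeR adjusted p = 0.003). SRRM2 had 245, 247 and 271 CPM in saline, 304, 240 and 291 CPM after ASO and 337, 471 and 534 CPM after OTV, a log2 fold change of 0.86 (SE 0.16, edgeR adjusted p = 0.006). In both genes OTV animals were above all others. SRRM1, SF3B1, PNN and SRSF11 had log2 fold changes of 0.75, 0.63, 0.58 and 0.56 in OTV against saline in cluster 0. SON and SRSF6 were the other genes called. PNN in OTV animal 1 (152 CPM) lay below ASO animals 1 and 3 (155 and 168 CPM). From OTV animal 1 to 3, PNN, SON, SRRM1, SRRM2, SRSF11 and SRSF6 rose at each step, and U2AF2 and SF3B1 did not. Median depth of cluster 0 nuclei fell in that order, at 7280, 5413.5 and 2535 UMIs. The part of depth in these calls was not tested. The count of 8 was 2 without OTV animal 2, 3 without OTV animal 3, saline animal 1 or saline animal 2, 4 without saline animal 3, 5 without ASO animal 1, and 3 with the 6 compared animals only. The median of the list stayed above 0 in each cluster under every alternative run.

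In ASO against saline 0 of the 15 speckle genes passed edgeR's test in any of the 10 clusters, beside 0.19% of all tests called higher. Of these 150 tests 2 had an unadjusted p under 0.05, and DESeq2's Wald test also called 0. In OTV against ASO 4 to 9 were higher and 0 to 1 lower, beside 8.83% of all tests called higher. That range was 2 to 6 without ASO animal 1, ASO animal 3 or OTV animal 3, and 2 to 7 without ASO animal 2 or OTV animal 2. Of genes for MALAT1 maturation and stability (13 of 15 listed are features), 0 to 2 were higher and 0 to 2 lower in OTV against saline in a cluster, beside 5.66% of all tests called higher and 8.11% lower. DGCR8, the partner of the microRNA-processing enzyme DROSHA, rose in 6 of 10 clusters, and in cluster 0 it had 17.4, 18.9 and 15.2 CPM in saline and 25.1, 27.3 and 37.3 CPM after OTV (log2 fold change 0.82, SE 0.19, edgeR adjusted p = 0.017), a call lost without OTV animal 3 or saline animal 1. TRNT1, which adds CCA to the ends of tRNAs, fell in 2 clusters. Of genes for RNase H and oligonucleotide handling (11 of 13 listed are features), 0 to 1 were higher and 0 to 2 lower in the same contrast, with the same shares over all tests. Counts this small in either list are near those shares. The endocytic receptor LRP1 rose in 4 clusters, and RNASEH2C, a subunit of RNase H2, fell in 3 of the 9 where it was tested. The OTV contrasts share their OTV animals, and the saline contrasts their saline animals, so their counts are not independent.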

How the data were processed

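UMI counts are raw, as deposited by the authors, 1 matrix for all nuclei, with a deposited table of animal, cell type, cluster and a doublet score (a fraction). Per the submitters' processing notes Cell Ranger 6.1.2, Seurat 4 and the human build GRCh38.p13 were used. The features carry macaque identifiers, so the annotation behind the MALAT1 counts is uncertain. Counts were summed per animal and cluster, and clusters with at least 20 nuclei in each animal were tested with edgeR 4.0.16 in R 4.3.3 (TMM, filterByExpr, robust fit of all 9 animals; DESeq2 1.42.0 as an alternative). Benjamini-Hochberg adjustment ran over all genes of a fit, with calls at 0.05. Exact permutation tests are 2-sided. Depth, 2579 to 7791 median UMIs per nucleus, limits single nuclei more than sums. Doublets were not called anew; an alternative drops the top 10% by score.

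Standardisation used 13 clusters with at least 5 nuclei in every animal. Correlations used genes with a UMI in at least 20% of nuclei and log2 of 1 plus UMIs per 10000 UMIs of other genes. Thinning took at most 600 nuclei per animal and cluster and at least 30, which cluster 7 did not reach. Differences of correlations used limma 3.58.1. Tests were checked on simulated data, in which the genes for the limma test were drawn independently. MALAT1, the gene lists and the tests were chosen with earlier results of these data known. Named genes are MALAT1, up to 6 called genes per list in cluster 0 by value, those most like or unlike MALAT1 across saline clusters, those meeting the sign rule within clusters, and the 5 lowest adjusted p in each direction of the cluster 1 correlations; other named list genes are the called ones by number of clusters, chosen after their values were seen. NEAT1 and RNASEH1 were not analysed here. Nothing in the labels says how libraries were batched. The animals are separate, so p values measure the spread between animals.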

Additional observations from a re-analysis of the deposited data

Results flagged for a closer look

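OTV and saline animals differed in how MALAT1 went with other genes in oligodendrocyte cluster 1. GRIK2, named for its smallest adjusted p among the 2587 genes, was positively correlated with MALAT1 in 3 of 3 saline animals and negatively in 3 of 3 OTV animals. Its difference of Fisher's z was -0.42 (limma adjusted p = 3.44e-08). Opposite signs in all saline and all OTV animals were found for 461 genes (17.8%). In the same contrast 550 of 2587 genes differed in their correlation with MALAT1. These calls rest on the same MALAT1 values in each animal and are not separate results. The count was 191 to 643 when 1 animal was left out and 214 after thinning to 2000 UMIs of other genes, which also kept at most 600 nuclei per animal; the parts of depth and number of nuclei were not separated.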

How the results depend on the processing

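In OTV against saline MALAT1 was called in 5 to 8 of the tested clusters under every alternative, and in clusters 0, 1, 2, 3 and 5 wherever these were fitted. In ASO against saline it was called in 0, except 1 by DESeq2's Wald test. In OTV against ASO the 1 call became 2 by DESeq2's Wald test, 3 with DESeq2's size factors, 3 with no filter on low counts, 2 of 9 clusters in nuclei of at least 2000 UMIs, 0 with the 6 compared animals only and 0 of 8 without the top 10% by doublet score, and 0 to 4 with 1 animal left out. Clusters whose 3 groups differed by exact permutation were 5, and 0 to 7 with 1 animal left out (0 without saline animal 2). Depth bins that passed were 3, and 3 to 6 with 1 animal left out (6 without saline animal 3). Sign turned in OPC cluster 13 for OTV against saline without saline animal 2 (log2 0.085, range -0.39 to 0.085 with 1 animal left out), in OPC cluster 13 for ASO without ASO animal 3 (-0.015) and without saline animal 3 (-0.092, range -0.092 to 0.41), and in astrocyte cluster 6 for ASO without saline animal 1 (0.070, range -0.27 to 0.070). None of these was called. The relation of level to percentage points lost in OTV, a mean r of 0.71 over the 3 saline animals, was 0.25 in the 13 clusters with at least 5 nuclei. The rule on correlations within clusters named 6 features, and 0 after thinning. Correlations that differed in cluster 1 numbered 214 after thinning in OTV against saline (191 to 643 with 1 animal left out), 24 in ASO against saline (2 to 223) and 7 in OTV against ASO (0 to 238). The adjusted p of the difference between clusters ran from 0.06 to 0.944 with 1 animal left out. The cause of these changes was not tested.

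No paired analysis was possible because the labels give no number that links animals of different groups. The number of nuclei limits the small clusters: cluster 13 had 25 to 61 an animal, at medians of 5180 to 16111 UMIs, and cluster 15 had 7 to 72. Nuclei were also removed before deposit, since the smallest holds 1018 UMIs, and nuclei with very little RNA are not seen. With 3 animals a group, pairwise exact permutation tests cannot go below p = 0.1.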
